A study of Mus musculus with 15 samples.

Results

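Olfr2 encodes the I7 odorant receptor, the receptor for which octanal is the best known ligand. It was taken as the single row whose Ensembl identifier, ENSMUSG00000070417, carries the symbol Olfr2, 1 gene of the 57010 in the table. The table also holds 1108 intact odorant receptor genes. Of these, 867 passed the filter on low counts, Olfr2 among them, as did 19229 genes in all.

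The data are RNA sequencing of the olfactory epithelium of wild-type C57BL/6J males, aged 8 weeks, after immunoprecipitation of ribosomes carrying phosphorylated ribosomal protein S6 (pS6-IP). Active neurons phosphorylate S6, so the precipitate is enriched for the messenger RNA of cells that responded to an odorant. All mice were kept without odour for 4 h and then exposed for 90 min. In the O+C group, octanal and cis-3-hexenol were put together on a shared filter paper. In the O&C group the same odorants were on separate papers 1 mm apart, so that they met only in the air. Acetophenone and decanal were given in those same ways to the A+D and A&D groups. Control mice were shown empty papers. Each odorant was given as 10 µL, and each group had 3 libraries, described as biological replicates. O+C and O&C together are called the O pair, and A+D and A&D together the A pair. No group received octanal alone, so a response of Olfr2 cannot be assigned to octanal or to cis-3-hexenol within the O pair.

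Odorant receptors are G protein-coupled receptors in the cilia of olfactory sensory neurons. A mature neuron transcribes mostly a single receptor gene, from a single allele, so the messenger RNA of a receptor marks the neurons that carry it. An odorant bound to the receptor activates the G protein Golf, adenylyl cyclase and a cyclic nucleotide-gated channel, and the neuron depolarises. In rat, I7 was among the first receptors matched to a ligand and responds to octanal and to aliphatic aldehydes of similar chain length. Mouse I7 differs from it in which of these aldehydes it prefers. Octanal and decanal are both straight-chain aldehydes, and decanal has the longer chain.

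Olfr2 lies on the minus strand of chromosome 7. The GENCODE annotation at hand, of build GRCm38 and not the GRCm39 of the deposited table, lists 7 transcripts for it, 6 of them with a coding sequence. The coding sequence is 981 bases long. No other annotated gene overlaps it. The sequences below show how far the coding sequence of Olfr2 differs from those of its 3 closest tested relatives. A coding read of Olfr2 can be told from theirs by its sequence only where it differs from them. Sequence outside the coding part, from which reads are counted too, is not shown. They are from the GENCODE transcripts and cover bases 517 to 606 of the Olfr2 coding sequence, counted from 1 at its first base, which is the stretch of 90 bases most alike in the 4 genes. Capitals mark bases that differ from Olfr2.
Olfr2: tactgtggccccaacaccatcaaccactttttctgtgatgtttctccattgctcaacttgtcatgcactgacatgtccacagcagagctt
Olfr524: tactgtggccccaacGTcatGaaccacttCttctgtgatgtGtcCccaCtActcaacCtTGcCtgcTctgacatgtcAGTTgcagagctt
Olfr414: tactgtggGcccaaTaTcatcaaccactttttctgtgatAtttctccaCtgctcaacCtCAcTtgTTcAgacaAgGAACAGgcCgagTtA
Olfr711: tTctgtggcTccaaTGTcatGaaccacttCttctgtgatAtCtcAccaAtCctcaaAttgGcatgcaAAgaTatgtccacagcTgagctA

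In this stretch Olfr524 matched Olfr2 at 73 of 90 bases, Olfr414 at 68 and Olfr711 at 71. The stretch least alike in the 4 genes lies just before it, at bases 436 to 525, where Olfr524 matched Olfr2 at 56 bases, Olfr414 at 51 and Olfr711 at 53. It is shown for Olfr2 and its closest relative.
Olfr2: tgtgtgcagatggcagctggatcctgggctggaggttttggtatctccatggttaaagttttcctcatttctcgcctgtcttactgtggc
Olfr524: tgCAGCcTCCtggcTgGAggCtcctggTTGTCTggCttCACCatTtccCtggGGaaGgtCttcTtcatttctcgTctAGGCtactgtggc

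Over the whole coding sequence the longest run identical to Olfr2 was 27 bases in Olfr524, 22 in Olfr414 and 29 in Olfr711. Of the 951 stretches of 31 bases in the Olfr2 coding sequence, 14 (1.47%) also occurred in the transcripts of 24 other genes. Over all annotated Olfr2 transcripts, the longest of 6178 bases, 149 of 6376 stretches (2.34%) also occurred in those of 554 other genes. The counts of Olfr2 were whole numbers to within 0.001 in all 15 libraries, so the authors' estimation divided almost none of its reads with another gene. At the stricter tolerance of 0.0005, which is used for the other genes below, they were whole in 11 of 15 libraries.

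The libraries held 22704177 to 25287060 counts each, and intact receptors together took 72552 to 142960 of them. In O+C mice Olfr2 had 463, 509 and 494 counts. In O&C mice it had 421, 485 and 476 counts. In A+D mice it had 82, 97 and 110 counts, in A&D mice 71, 83 and 76, and in Control mice 79, 94 and 117. Every library of the O pair lay above every other library.

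After TMM scaling by edgeR, which puts libraries on a common scale (CPM, edgeR's library-scaled count), Olfr2 stood at 19.9, 20.4 and 19.2 CPM in O+C mice. It stood at 18.3, 19.9 and 21.2 CPM in O&C mice. Levels were 3.44, 4.30 and 4.49 CPM in A+D mice, 3.04, 3.57 and 3.03 CPM in A&D mice, and 3.19, 3.75 and 4.83 CPM in Control mice. The levels formed a high group of 6 libraries and a low group of 9, and within each the odour groups overlapped or nearly touched. The lowest O pair library was 3.78 times the highest of the other 9. This separation was found in 83 of the 867 tested receptors (9.57%), Olfr2 included, and in 4.04% of all genes, and 6 receptors had a wider gap than Olfr2.

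**Figure D1:**
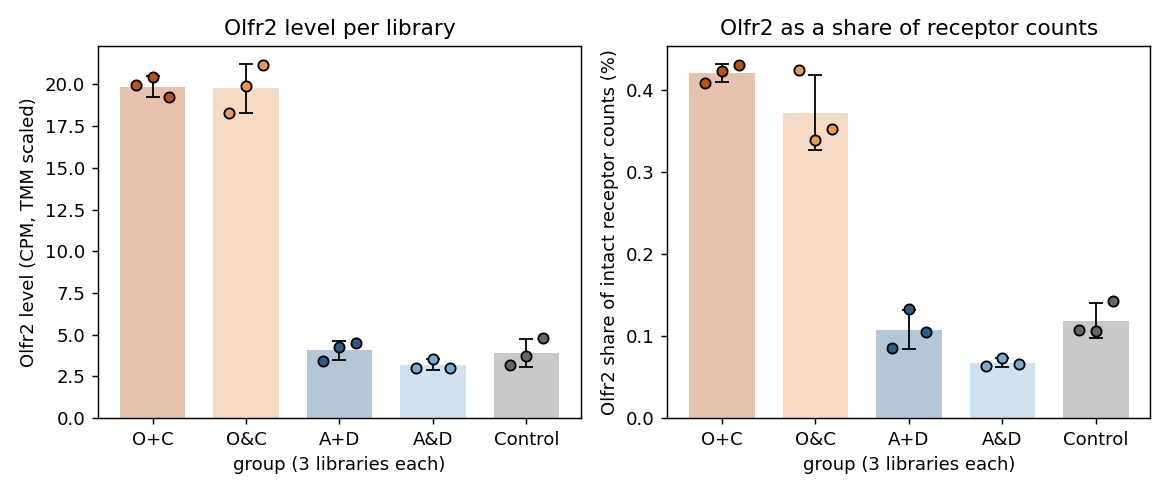
Left, Olfr2 level in CPM after TMM scaling. Right, Olfr2 as a percentage of all intact receptor counts. Points are the 3 libraries of each group, bars are group means and error bars are 1 SD. All 6 O+C and O&C libraries lie at or above 18.3 CPM, and the A+D, A&D and Control libraries at or below 4.83 CPM.

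Mean levels were 19.9 ± 0.616 CPM in O+C and 19.8 ± 1.47 CPM in O&C mice (SD, n = 3 each). They were 4.07 ± 0.557 CPM in A+D, 3.21 ± 0.312 CPM in A&D and 3.93 ± 0.835 CPM in Control mice (SD, n = 3 each), which puts Control between A+D and A&D in the order of levels. O+C and O&C did not differ beyond their spread, and neither did A+D and Control, or A&D and Control. The step between O&C and A+D was the only one between neighbours that exceeded the spread. The coefficient of variation was 3.10% in O+C and 7.42% in O&C mice, beside a counting error of 4.53% and 4.67% per library. It was 13.7% in A+D, 9.70% in A&D and 21.3% in Control mice, beside counting errors of 10.2%, 11.4% and 10.3%. The spread between mice was below the counting error in O+C and A&D mice and above it in O&C, A+D and, by the most, Control mice.

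Olfr2 was higher after octanal and cis-3-hexenol than in Control mice under both ways of delivery. The log2 fold change was 2.34 in O+C against Control (SE 0.17, 95% interval 1.99 to 2.69, adjusted p = 1.61e-07, edgeR's quasi-likelihood test with Benjamini-Hochberg adjustment over all genes). It was 2.33 in O&C against Control (SE 0.17, 95% interval 1.98 to 2.68, adjusted p = 1.21e-07, same test). Of all genes, 8.09% passed an adjusted p of 0.05 in O+C and 14.7% in O&C. For the O pair as a whole the level was 5.05 times that of Control (95% interval 4.02 to 6.33, edgeR adjusted p = 4.30e-08), a log2 fold change of 2.34. In that comparison 17.1% of all genes passed in either direction, and 126 receptors (14.5%) were higher and 104 (12%) lower. Among the 867 receptors Olfr2 ranked 51st by fold change and 6th by p-value. In bulk tissue, more Olfr2 neurons in the precipitate and more Olfr2 RNA per neuron cannot be told apart.

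Acetophenone and decanal gave no such change. Olfr2 differed from Control by a log2 fold change of 0.05 in A+D (95% interval -0.31 to 0.42, edgeR adjusted p = 0.912). In A&D the log2 fold change was -0.29 (95% interval -0.66 to 0.08, edgeR adjusted p = 0.555). In these comparisons 0.322% and 1.02% of all genes passed. For the A pair as a whole Olfr2 was at 0.922 times its Control level, with a 95% interval of 0.742 to 1.15 (edgeR adjusted p = 0.743, 1.22% of all genes passing). A rise of Olfr2 beyond 1.15-fold in the A pair thus lay outside the interval. Among receptors, 80 (9.23%) were higher in the A pair than in Control, and Olfr160, a receptor known to respond to acetophenone, was one of them, at 2.16 on the log2 scale (SE 0.36, adjusted p = 0.00285 in edgeR). Olfr160 had 3.02, 2.83 and 4.28 CPM in A+D mice and 7.87, 5.98 and 5.06 CPM in A&D mice, against 0.687, 0.997 and 1.405 CPM in Control mice. Olfr16, Olfr73, Olfr78 and Olfr1440, whose known ligands are lyral, eugenol, short-chain acids and muscone, did not pass the test against Control in either pair, and Olfr151, another acetophenone receptor, did not pass the filter on low counts.

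Set directly against each other, with no Control library involved, the O pair had 5.47 times the Olfr2 level of the A pair (95% interval 4.59 to 6.52, log2 fold change 2.45, SE 0.12, edgeR adjusted p = 2.34e-10). In this comparison 15.8% of all genes passed, and 118 receptors (13.6%) were higher in the O pair. Olfr2 ranked 8th of 867 receptors by p-value.

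**Figure D2:**
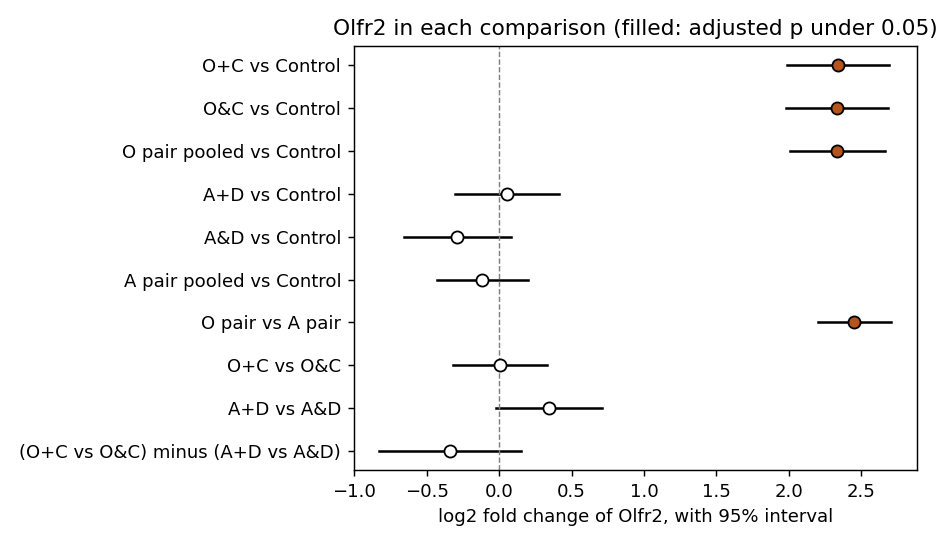
Log2 fold change of Olfr2 in each comparison, with its 95% interval. Filled points passed an adjusted p of 0.05 in edgeR's quasi-likelihood test. The O+C, O&C and O pair comparisons with Control and the O pair against the A pair lie between 2.33 and 2.45, and the intervals of all others include 0.

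The way of delivery made no detectable difference to Olfr2. O+C stood 0.01 above O&C on the log2 scale (SE 0.15, adjusted p = 1.00 in edgeR), and the 95% interval of the ratio was 0.802 to 1.26. No gene passed in this comparison in edgeR (0% of all genes), 766 had an unadjusted p under 0.05, and 9 passed in DESeq2. A+D stood at a log2 fold change of 0.34 over A&D (95% interval -0.02 to 0.71, edgeR adjusted p = 0.994), where 0.12% of all genes passed. The difference between these delivery effects was -0.34 (95% interval -0.83 to 0.15, edgeR adjusted p = 1.00), with 0.0104% of all genes passing.

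Among the 126 receptors higher in the O pair than in Control, 109 had a lower fitted level in O+C than in O&C, as did 9740 of all 19229 genes. Their median log2 fold change between deliveries was -0.39, with quartiles of -0.55 and -0.15, against -0.0027 over all 867 receptors. None of the 126 passed the test between deliveries in edgeR, 35 had an unadjusted p under 0.05, all of them lower in O+C, and 3 passed in DESeq2. Olfr2, at 0.01, lay above the upper quartile. Whether the Olfr2 delivery effect differs from that of the other receptors was not tested. The markers of mature olfactory neurons had a median log2 fold change of -0.22 in O+C against O&C, and their part in the fitted values of the 126 receptors was not tested.

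**Figure D3:**
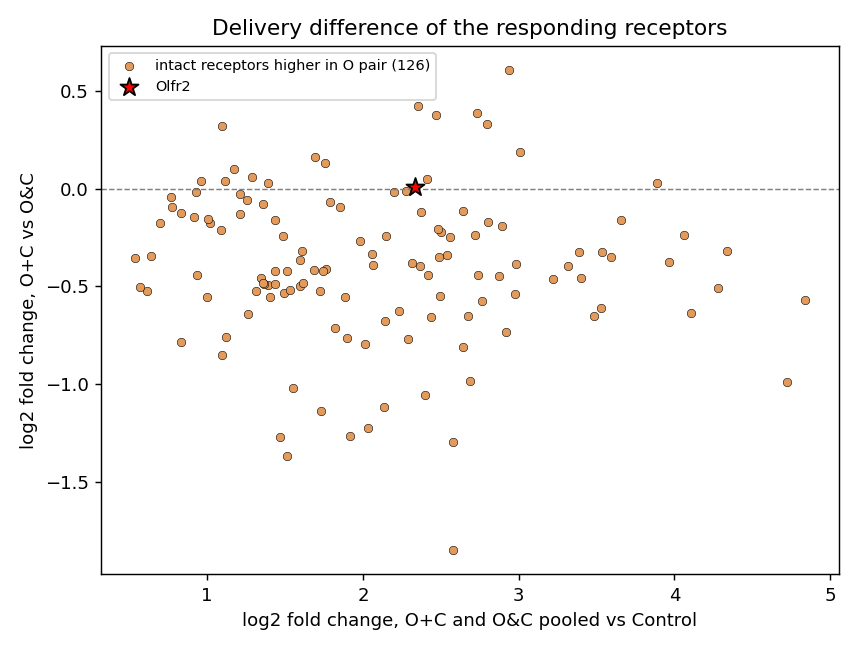
Each point is an intact receptor that was higher in the O pair than in Control (126 receptors). The horizontal axis is the log2 fold change of O+C and O&C pooled against Control and the vertical axis that of O+C against O&C. Most points lie below 0, with a median of -0.39, and Olfr2 (star) lies at 0.01.

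Because the receptors as a whole took a larger part of the counts in some groups, Olfr2 was also expressed as a share of all intact receptor counts, which needs no scaling between libraries. The share was 0.409%, 0.423% and 0.431% in O+C mice and 0.424%, 0.339% and 0.353% in O&C mice. It was 0.0861%, 0.134% and 0.105% in A+D mice, 0.0633%, 0.0738% and 0.0663% in A&D mice, and 0.108%, 0.106% and 0.143% in Control mice. All 6 shares of the O pair were above all others, and all 3 of A&D were below all 3 of Control. Intact receptors took 112081 to 114670 counts in A&D mice and 73126 to 88728 in Control mice, so these shares have unlike denominators. In CPM, Olfr2 levels overlapped between A&D and Control mice. The part of the denominator in the lower A&D share was not tested.

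The share was 0.278 percentage points higher in the O pair than in Control. The exact two-sided permutation test over libraries gave p = 0.0238 for this difference, the smallest that 6 libraries against 3 can give. Benjamini-Hochberg adjustment over the 6 comparisons made brought it to 0.0714, so that it did not pass after correction. At these numbers of libraries no data could have passed after this adjustment, so not passing is no measure of the difference. Against the A pair the O pair was 0.309 points higher (exact two-sided permutation p = 0.00216, adjusted p = 0.0130). With 3 libraries against 3 this test cannot go below 0.1, which was the p for O+C, O&C and A&D each against Control, while A+D against Control had an exact p of 0.5.

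Markers of mature olfactory neurons were also higher in the O pair, so the level of Olfr2 was set against them. All 8 markers rose in the O pair against Control, beside 10.1% of all genes, with a median log2 fold change of 0.86, and their summed level ran from 12839 to 18018 CPM in the O pair against 7763 to 8821 CPM in Control. Relative to that sum, Olfr2 was higher by 1.48 on the log2 scale in the O pair than in Control (exact two-sided permutation p = 0.0238). Relative to Omp alone, the marker protein of mature olfactory neurons, the difference was 1.42 (exact two-sided permutation p = 0.0238). Against the A pair the differences were 2.05 and 2.04 (exact two-sided permutation p = 0.00216 each). These 4 p-values are each the smallest this test can give at that number of libraries. In the A pair against Control, Olfr2 stood at -0.57 relative to the marker sum and -0.62 relative to Omp (exact two-sided permutation p = 0.0952 each). All 6 p-values are unadjusted.

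Some markers of other cell types moved the other way in the O pair. Of the red blood cell markers 4 of 4 fell, of the immune markers 3 of 6 and of the markers of sustentacular cells, the supporting cells of the epithelium, 3 of 5, beside 7.04% of all genes, with median log2 fold changes of -0.69, -0.81 and -0.40. Glial and respiratory ciliated cell markers each had 1 of 4 lower. Summed red blood cell markers ran from 10008 to 20232 CPM in the O pair against 17822 to 28446 CPM in Control. Their part in the level of Olfr2 was not tested.

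The gene Obp2a, an odorant binding protein made by nasal glands, was between 0.162 and 2.14 CPM in 5 libraries, namely O&C replicates 1 and 3, A+D replicate 2, A&D replicate 1 and Control replicate 1, and between 111 and 525 CPM in the other 10. Without those 5 libraries Olfr2 still had a log2 fold change of 2.19 in the O pair against Control and of 2.46 against the A pair. Only replicate 2 of O&C is then left, so the O&C part of these values rests on a single mouse. A+D replicate 2 had the lowest mean correlation with the other libraries, at 0.958, and its Olfr2 level lay between those of the other 2 A+D mice.

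Over the 5 groups together, Olfr2 varied little from mouse to mouse for a receptor, though its coefficient of variation reached 21.3% in Control mice. Its biological coefficient of variation in the model was 0.136, beside a median of 0.296 over all tested receptors, and 5 of the 867 receptors had a lower one. Of the 126 receptors higher in the O pair, 50 had a larger fold change than Olfr2 and 5 a smaller standard error. Their median log2 fold change was 2.00. In the A pair, 30 of the 126 were also higher than in Control, beside 9.23% of all receptors, and 96, Olfr2 among them, did not pass. Both comparisons use the same 3 Control libraries.

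The old mouse receptor family of Olfr2, named MOR103 in the gene synonyms, held 16 other tested receptors, all of those in the table. Their coding sequences were 56.6% to 64.5% identical to that of Olfr2, with a median of 61.0%, against a median of 54.0% and a highest value of 59.3% in the other 1087 receptors with a sequence. In the O pair against Control 3 of the 16 rose and 5 fell, with a median log2 fold change of -0.29. Over all receptors 14.5% rose and 12% fell, with a median of -0.37. In the A pair 0 of 16 passed in edgeR or in DESeq2, 1 had an unadjusted p under 0.05, and the log2 fold changes ran from -0.50 to 0.24. Of all 867 receptors 80 (9.23%) were higher in the A pair and 0 lower in edgeR. Whether 0 of 16 differs from this share was not tested.

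Olfr524, the closest relative at 64.5% identity and also on chromosome 7, had 53.1, 63.3 and 71.9 CPM in O+C mice and 60.1, 59.3 and 61.5 CPM in O&C mice. Its levels were 29.4, 22.3 and 26.4 CPM in A+D mice, 16.9, 27.1 and 23.7 CPM in A&D mice, and 23.2, 26.8 and 25.6 CPM in Control mice. The O pair did not overlap with the other groups, and the log2 fold change was 1.29 ± 0.14 (SE) against Control and 1.34 against the A pair (edgeR adjusted p = 1.31e-05 and 2.17e-07).

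Olfr414, next at 63.1% identity and on chromosome 1, had 51.4, 45.3 and 48.6 CPM in O+C mice and 36.5, 45.6 and 53.5 CPM in O&C mice, against 21.2, 22.6 and 18.5 CPM in Control mice. Its log2 fold change was 1.17 ± 0.16 (SE) in the O pair against Control and 1.16 against the A pair (edgeR adjusted p = 9.97e-05 and 7.79e-06). Olfr711, at nearly the same identity of 63.0%, had 45.8, 49.7 and 63.0 CPM in O+C mice and 44.0, 50.2 and 54.4 CPM in O&C mice, against 64.5, 74.8 and 67.5 CPM in Control mice. Its log2 fold change was -0.43 against Control (edgeR adjusted p = 0.0418) and -0.52 against the A pair (edgeR adjusted p = 0.00674). Relatives of nearly the same identity to Olfr2 thus stood on both sides of Control. The value of Olfr711 against Control was, however, near the median of -0.37 over all receptors. With libraries scaled on the receptors alone it was -0.18 and did not pass (edgeR adjusted p = 0.444).

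The other relative that rose was Olfr6, at 1.01 ± 0.26 on the log2 scale (SE, adjusted p = 0.0148 in edgeR), which did not pass without Control replicate 1 or 3 (adjusted p = 0.0519 and 0.0774). Olfr6 had whole counts in only 2 of 15 libraries, so its reads were shared with another gene and its value is uncertain. The other relatives that fell were Olfr220 at -0.68, Olfr1414 at -0.56, Olfr1346 at -0.55 and Olfr1348 at -0.34, the last with no whole counts. All 5 falls, that of Olfr711 included, stayed negative but did not pass the test when libraries were scaled on the receptors alone, a scaling that moved the median of all genes by 0.25. All 5 also lost their call without Control replicate 2 or 3, and all but Olfr220 without Control replicate 1 and without several single libraries of the O pair. Against the A pair, 4 relatives were higher and 4 lower, beside 13.6% and 20% of all receptors, and Olfr5, at a log2 fold change of 0.65, was the one higher there but not against Control, a call lost without the 5 low Obp2a libraries (0.59, edgeR adjusted p = 0.130).

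**Figure D4:**
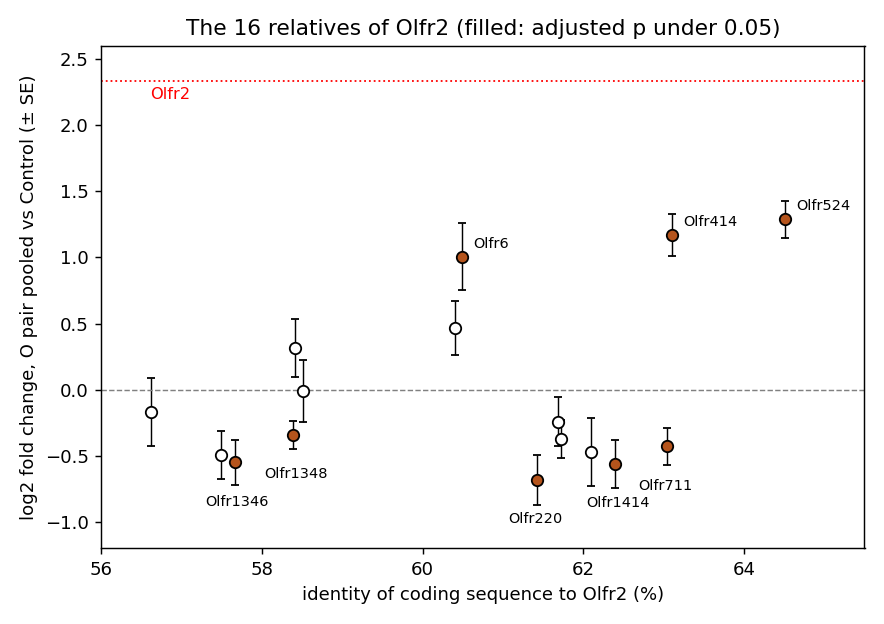
Log2 fold change in the O pair against Control, with its SE, of the 16 tested relatives of Olfr2, against the identity of their coding sequence to that of Olfr2 in percent. Filled points passed an adjusted p of 0.05, and the dotted line is Olfr2 at 2.34. The 2 closest relatives, Olfr524 and Olfr414, lie at 1.29 and 1.17, and the next, Olfr711, at -0.43.

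The 3 receptor genes on each side of Olfr2 on chromosome 7 are Olfr710, Olfr6 and Olfr711 on one side and Olfr713, Olfr714 and Olfr17 on the other. Olfr6 was higher and Olfr711 lower in the O pair, as given above, and the other 4 did not pass. These counts, 1 of 6 higher and 1 of 6 lower, were near the shares over all receptors, 14.5% and 12%. The rise of Olfr6 is uncertain, as given above.

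The receptors whose levels followed those of Olfr2 most closely over the 15 libraries were not its relatives. Likeness was the root mean square difference in log2 CPM after each gene was centred on its own mean, so that 0 would be an identical pattern, and the median over 866 receptors was 1.43. The 8 most alike were Olfr46 and Olfr124 at 0.310 each, Olfr1427 at 0.315, Olfr1023 at 0.376, Olfr1240 at 0.380, Olfr1256 at 0.384, and Olfr193 and Olfr1242 at 0.387 each. Their coding sequences were 53.0% to 56.7% identical to that of Olfr2, near the median of all receptors outside its family. Olfr524 came to 0.566 and Olfr414 to 0.670.

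Olfr124 had 99.3, 131 and 97.4 CPM in O+C mice and 133, 125 and 174 CPM in O&C mice. It had 20.8, 17.4 and 19.3 CPM in A+D, 13.2, 21.95 and 21.0 CPM in A&D, and 17.5, 30.1 and 25.3 CPM in Control mice. Its log2 fold change in the O pair against Control was 2.37 ± 0.20 (SE), and those of the other 7 ran from 1.76 for Olfr1242 to 2.94 for Olfr1023, a receptor near the filter at 0.941 ± 0.261 CPM in O+C mice (SD, n = 3). Olfr46 had whole counts in 2 of 15 libraries and was taken to share reads with another gene. These patterns are alike mainly in being high in the same 6 libraries, and genes measured in the same libraries share their depth and preparation.

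**Figure D5:**
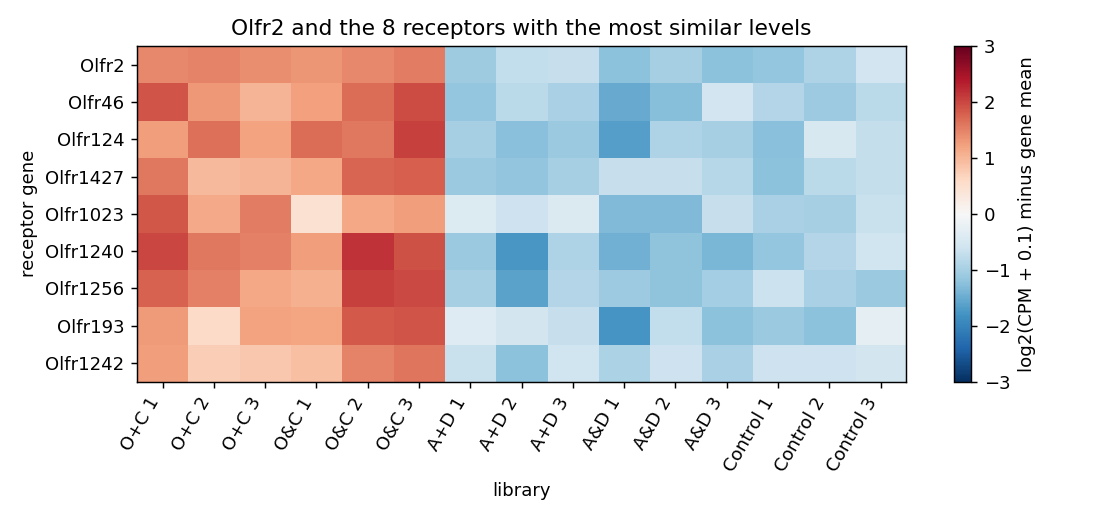
Level of Olfr2 and of the 8 most similar receptors in each of the 15 libraries, as log2(CPM + 0.1) minus the gene's mean over the libraries. Red is above the mean and blue below it, and all 9 genes are red in the O+C and O&C libraries and blue in the others.

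Among genes that are not receptors, the median difference from Olfr2 was 1.23 and the most alike were Gm13769 at 0.378 and Nr4a1 at 0.596. Gm13769 had no library with whole counts, so it was taken to share reads with another gene. Nr4a1, a transcription factor gene switched on by neuronal activity, had 211, 229 and 293 CPM in O+C mice and 181, 164 and 209 CPM in O&C mice, against 43.6, 37.9 and 31.1 CPM in Control mice. Its log2 fold change was 2.50 ± 0.14 (SE, edgeR adjusted p = 1.04e-08). The next were ENSMUSG00000121437 at 0.670, Gm47851 at 0.673 and Nrde2 at 0.686, whose log2 fold changes in the O pair were 2.76, 2.12 and 1.51.

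The genes of the transduction cascade downstream of receptors such as I7, and those for bringing receptors to the membrane, were higher in the O pair than in Control for 18 of 20 members, beside 10.1% of all genes. The 8 mature neuron markers given above are all among these 20, so the counts are not separate results. The list of 20 was written with earlier results of these data known. Its median log2 fold change was 0.79, against -0.03 over all genes. In the A pair 3 of 20 were higher, beside 0.962% of all genes, with a median of 0.31. Gng13, a G protein gamma subunit, had a log2 fold change of 1.07 in the O pair and Adcy3, the adenylyl cyclase of olfactory cilia, of 1.06. Neither has whole counts, so each was taken to share reads with another gene. Omp stood at 0.94, Ric8b, which helps Golf to fold, at 0.91, and Pde4a, a phosphodiesterase, and Stoml3, a membrane protein of the cilia, at 0.87 each. Grk3, a receptor kinase, and Arrb2, an arrestin, did not pass, at -0.49 and 0.11. The log2 fold change of Olfr2, 2.34, was above that of each of the 20.

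Of 14 genes listed as following neuronal activity, 10 were higher in the O pair, beside 10.1% of all genes. In the A pair 5 were higher, beside 0.962%, and the median log2 fold changes were 1.90 and 0.90. The list was written with earlier results of these data known, so these counts are no independent support. Kcng1, a potassium channel subunit, rose by 2.78, Pcdh10, a protocadherin, by 2.74, Npas4, an activity-induced transcription factor, by 2.67, Fosb by 2.48 and Lrrc3b by 2.27, all log2 fold changes of the O pair against Control. Npas4 did not pass without O+C replicate 3, O&C replicate 2, or Control replicate 1 or 2 (adjusted p from 0.0509 to 0.127). Lrrc3b had no library with whole counts and Pcdh10 was taken to share reads in some. Fos, Egr1, Arc and Junb did not pass, at 1.17, 0.95, -0.17 and 0.03.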

How the data were processed

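The 15 pS6-IP libraries were used, 3 in each of the 5 groups named in the sample titles, and each library was taken as a separate mouse because the labels describe biological replicates. The authors deposited 1 table of expected counts: estimates for each gene, some with decimals, not scaled by library size. STAR 2.7.10b, Salmon 1.10.1, R 4.4.2 and build GRCm39 are named in the submitters' processing notes, while the annotation and the use of strand are not given in the sources used here. Libraries were made with a stranded kit, per the labels' protocols.

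Counts were rounded to whole numbers and filtered by edgeR's filterByExpr with a minimum count of 10. Library sizes were scaled by TMM. edgeR 4.0.16 in R 4.3.3 was fitted to all 15 libraries by its robust quasi-likelihood method, each group having its own mean, and p-values were adjusted over 19229 genes. The pooled comparisons use the mean of both groups of a pair. DESeq2 1.42.0 was an alternative. The fit was also run on simulated data with known changes, and the outcome is not given here. Every simulated gene had the same spread, which was below the median of the tested receptors. That run therefore cannot show how the fit does on receptors. The counting errors, given in percent, cover counting alone. The intervals on fold changes and ratios are from the quasi-likelihood fit, which includes the spread between libraries. Intact receptors are genes with an Olfr symbol not marked there as a pseudogene. Genes with few whole counts (to within 0.0005) were taken to share reads with another gene. The size of the shared part was not measured.

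Identity to Olfr2 is from global alignment of GENCODE coding nucleotide sequences. Amino acid identity had been planned, and no protein sequences were used here. Olfr2 was described in full; the other genes are its family, its neighbours, the most alike genes, receptors of known ligands and, from the pathway lists, at most 6 members with the largest called changes. Members of those lists that did not pass, and the per-library levels chosen for print, were picked after their values were seen. The share test was first run over 9 comparisons and then limited to the 6 planned, with the adjusted p of the O pair against Control over 0.05 both times. The gene, the lists and the tests were chosen with earlier results of these data known.

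Samples with the same replicate number did not deviate together from their group means (mean correlation -0.034), so numbers were not treated as pairs.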

Additional observations from a re-analysis of the deposited data

Results flagged for a closer look

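Nr4a1 is an activity-induced gene, and its pattern over the libraries was among those most similar to Olfr2 in genes that are not receptors. Its response to the way of delivery differed between the odour pairs. It averaged 245 ± 43.1 CPM in O+C mice and 185 ± 22.8 CPM in O&C mice, and 37.6 ± 3.82 CPM in A+D mice and 80.4 ± 8.996 CPM in A&D mice (SD, n = 3 each), beside 37.5 ± 6.26 CPM in Control mice. The difference between the delivery effects was 1.501 on the log2 scale (SE 0.21, edgeR adjusted p = 0.0115, interaction term). Nr4a1 was 1 of 2 genes (0.0104% of those tested) that passed this test. Olfr2 did not pass it.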

How the results depend on the processing

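The rise of Olfr2 in the O pair held in every alternative run, with log2 fold changes of 2.19 to 2.59 against Control and 2.40 to 2.64 against the A pair. Leaving out each library in turn gave 2.21 to 2.51 for the O pair, 2.21 to 2.51 for O+C and 2.20 to 2.51 for O&C against Control, and 2.40 to 2.50 against the A pair. With the replicate number as a block the values were 2.35 for O+C, 2.34 for O&C, 2.34 for the O pair and 2.46 against the A pair, and the block changed no call of Olfr2.

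Differences that did not pass changed sign in some alternatives, none passing. A+D against Control ran from -0.074 to 0.23 with a library left out, -0.074 without Control replicate 1 and -0.02 without A+D replicate 3, and was -0.13 without the low Obp2a libraries. O+C against O&C ran from -0.062 to 0.053, and was -0.0059 with DESeq2, -0.0059 with RLE size factors, -0.00795 with scaling on receptors alone and -0.013 without the low Obp2a libraries. With a library left out, the A pair against Control ran from -0.24 to 0.059, A&D against Control from -0.42 to -0.11, A+D against A&D from 0.27 to 0.45, and the difference of delivery effects from -0.44 to -0.26. Over all alternatives the A pair against Control reached -0.26, A+D against A&D 0.26 to 0.49 and the difference of delivery effects -0.50. The share difference of the O pair against Control ran from 0.271 to 0.290 points with a library left out and was 0.261 points with pseudogenes in the denominator and 0.00154 points as a share of all counts, and its p was 0.0714 when a Control library was left out, the smallest p that 6 against 2 can give in this exact test.

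Alternatives for other genes cover only the 38 fold changes printed, a choice made after values with no call had been seen to change sign: of 698 values 650 kept their call, 48 no longer passed and none reversed. Receptors lower in the O pair numbered 104, and 21 to 147 across the alternatives, the fewest when scaled on receptors alone. Those lower than in the A pair numbered 173, and 88 to 184, the fewest without the low Obp2a libraries. Of the relatives, 5 were lower in the O pair and 0 to 7 across the alternatives, and 3 were higher and 2 to 4. Against the A pair 4 were lower, and 0 to 5, the fewest when scaled on receptors alone. The low Obp2a alternative and those of the relatives against the A pair were added after seeing the data.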
